A study of Sus scrofa with 2 samples.

Results

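Cardiac fibroblast nuclei were drawn from 2 single-nucleus RNA libraries of Bama minipig heart, taken from the free wall of the left ventricle. One library came from a wild-type genotype (WT) and one from a triple-transgenic genotype (TG, PNPLA3I148M-GIPRdn-hIAPP), whose transgenes are the I148M form of PNPLA3, a lipase of fat droplets, a dominant-negative form of GIPR, the receptor of an incretin hormone, and human IAPP, the peptide of islet amyloid. Both had received a high-fat, high-sucrose diet for 12 months, and no group on a normal diet was analysed here. The promoters of the transgenes, the age and sex of the pigs and the number of pigs behind each library are not given in the sources used here. With 1 library per genotype there is no replicate of either genotype. No p-value was computed, and every 95% interval below covers counting error only. Genotype, animal and library preparation cannot be told apart.

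Members were chosen by measured values. A nucleus was taken as a member when at least 4 of its unique molecular identifiers (UMIs, counted RNA molecules), and at least 0.15% of them, came from ABCA8, COL1A1, PDGFRA, COL6A6 and DCN together. Genes of cardiomyocytes, vascular endothelium, macrophages, smooth muscle and pericytes had to stay under set limits. The rule found 2994 members among 16725 kept nuclei in WT and 2275 among 14939 in TG, 5269 of 31664 in all. The median member held 25 UMIs of the rule genes in WT and 17 in TG, or 0.621% and 0.588% of its UMIs. Just inside the threshold, 76 WT and 58 TG members had 4 or 5 such UMIs, and just outside it 40 WT and 4 TG nuclei that met the other limits had 3. The marker part of the rule was passed by 3288 WT and 2715 TG nuclei, of which 91.1% and 83.8% became members. The limit on smooth muscle genes (MYH11 and ACTA2) alone removed 8 WT and 15 TG nuclei, so fibroblasts that carry much ACTA2 are not described.

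Cardiac fibroblasts make and turn over the collagen, elastic and proteoglycan scaffold that holds heart muscle in place. They read growth factors and stretch through receptors and integrins, and on injury some enter an activated state with contractile proteins and new matrix, called the myofibroblast. Insulin-like growth factor 1 (IGF-1), transforming growth factor beta (TGF-beta), BMP and Wnt proteins are among the signals that fibroblasts send and receive.

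Depth differed between the libraries. The WT library held 18251 barcodes with 127126477 UMIs and the TG library 15000 barcodes with 89324966 UMIs. A median WT member had 4017 UMIs and 1989 genes, and a median TG member 2747 UMIs and 1591 genes. The level of a gene is its count per 1000000 UMIs of nuclear-encoded genes (CPM) over all members of a library. The levels rest on 13094517 UMIs in WT and 7021628 in TG. The libraries shared 81 barcodes, 2 of them between members.

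Transcripts of heart muscle were present in the fibroblast nuclei and were higher in TG. The summed level of 13 cardiomyocyte markers was 3852 (WT) and 11817 CPM (TG), with 12 of the 13 higher in TG. The median marker stood at 28.0% of its level in cardiomyocyte nuclei of the same library in WT and at 76.1% in TG. In macrophage nuclei, counted the same way, these values were 25.2% and 70.0%. Summed markers of vascular endothelium in the members were at 415 (WT) and 534 CPM (TG), those of pericytes at 187 and 358, of macrophages at 571 and 757, of smooth muscle at 536 and 990, and of T or NK lymphocytes at 76.4 and 183. The endothelial sum is weighted by PECAM1, at 258 and 142 CPM. Of the 12 endothelial markers 11 were higher in TG, with a median log2 ratio of 1.76. The median endothelial marker stood at 2.33% (WT) and 8.71% (TG) of its level in vascular endothelial nuclei. The part of all these transcripts in the comparisons below was not tested. For that reason genes are described first where fibroblasts lead. A gene was called fibroblast-led when, in the library where it was higher, it reached 50 CPM and at least 2 times its level in cardiomyocyte, vascular endothelial and macrophage nuclei of that library.

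Markers of fibroblasts that the rule did not use were present in both libraries. Of 20 measured, 18 were fibroblast-led, and the others were SCN7A and VIM. LUM, which encodes the collagen-binding proteoglycan lumican, was at 646 (WT) and 837 CPM (TG), against 7.43 and 16.0 CPM in cardiomyocyte nuclei. TCF21, a transcription factor of the fibroblast lineage, was at 48.6 and 64.1 CPM, against 0.465 and 2.14 CPM in cardiomyocytes. The presence of these markers matches the label of the nuclei as fibroblasts in both libraries. Between the libraries, 2 of the 20 were higher and 5 lower in TG by at least 1.5 times with an interval that excludes 1. Their median log2 ratio of TG over WT was -0.21.

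Fibroblast nuclei took a smaller share of the kept nuclei in TG. WT had 17.9% (exact Clopper-Pearson interval 17.3% to 18.5%) and TG 15.2% (14.7% to 15.8%). The share in TG was 0.851 times that in WT (0.809 to 0.894). The limits on other classes enter this ratio, since 91.1% of WT and 83.8% of TG nuclei that passed the marker part became members. Vascular endothelial nuclei, a part of the same total, were at 10.3% in WT and 19.3% in TG. The barcodes of the libraries start at different depths, with the lowest at 500 UMIs in WT and 1972 in TG. With at least 2000 UMIs asked of each nucleus, the ratio was 0.824 (0.783 to 0.867). With at most 1% of UMIs from mitochondrial genes asked of each nucleus, the ratio was 0.669. Members had a median mitochondrial share of 0.650% in WT and 0.916% in TG.

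Across all genes with at least 10 CPM in one library, 1606 of 10233 were higher in TG fibroblast nuclei (15.7%) and 878 were lower (8.58%). Higher and lower here and below mean a difference of at least 1.5 times whose interval excludes a ratio of 1. Among fibroblast-led genes 76 of 522 were higher (14.6%) and 156 were lower (29.9%), with a median log2 ratio of TG over WT of -0.28 against 0.03 over all measured genes. The library in which the lead is asked helps to set this balance. Of the 423 genes led in TG, 76 were higher and 85 lower, of the 457 led in WT 34 and 156, and of the 328 led in both 32 and 78. The split over all genes depends on scaling. With TMM factors the median log2 ratio over all genes was -0.12, and 46.7% of the counted genes were higher, against 64.7% on the CPM scale. Without the groups of nuclei with markers of another class, 1477 of 9972 genes were higher and 978 lower.

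Within each library the fibroblast nuclei formed groups when clustered without the other library. There were 11 groups in WT and 11 in TG, of which 5 and 7 were shallow or had a summed marker level of another class (cardiomyocyte, endothelial, immune, pericyte or Schwann) of at least 500 CPM and 4 times that of the median group. These held 396 nuclei in WT (13.2% of the fibroblast nuclei) and 439 in TG (19.3%), and droplets with more than 1 nucleus were not removed by a caller. The other 2598 WT and 1836 TG nuclei fell into 6 and 4 groups. Cardiomyocyte markers were spread over all of these, with sums from 2535 to 3599 CPM in the 6 WT groups and from 10617 to 13359 CPM in the 4 TG groups.

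**Figure D1:**
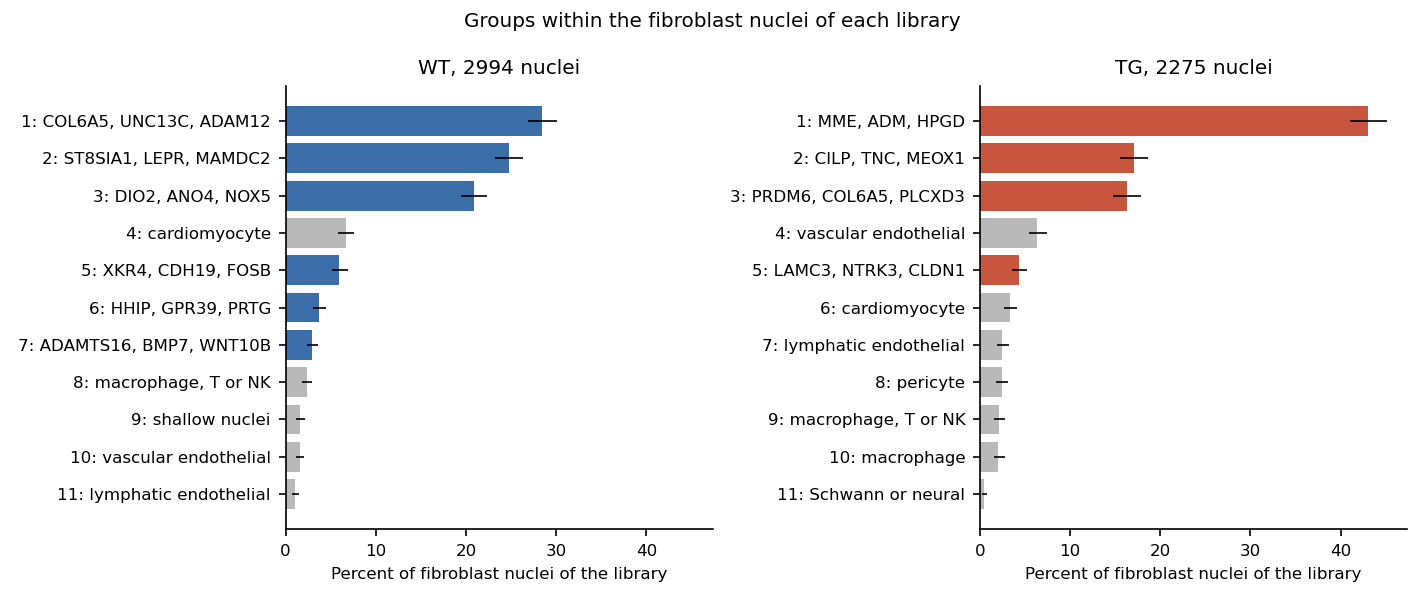
Share of the fibroblast nuclei of a library (horizontal axis, percent) in each group found in that library alone, for WT (left, 2994 nuclei) and TG (right, 2275 nuclei). Bars carry exact Clopper-Pearson intervals, coloured groups (WT group 5 with Schwann and immediate early genes among them) are named by leading genes, and gray groups carry another class or are shallow, 13.2% of the nuclei in WT and 19.3% in TG.

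Kinds of fibroblast nuclei recurred in both libraries, as judged by their leading genes. Of the 50 genes that led a group over the other members of its library, 23 were shared between WT group 1 and TG group 3, COL6A5, PRDM6 and the complement gene C7 among them. WT group 2 and TG group 1 shared 14, with the leptin receptor gene LEPR and the peptidase gene MME. WT group 3 and TG group 2 shared 13, with FNDC1, GALNT16 and LMX1A. WT group 6 and TG group 5 shared 26, with WNT2, a Wnt ligand gene, and the tight junction gene CLDN1. WT group 5 (179 nuclei) is not described as a kind of fibroblast. Its leading genes were XKR4 and CDH19, which are on the list of Schwann markers, and immediate early genes, with no fibroblast marker among the first 10. It shared at most 4 leading genes with any of these TG groups and 7 with TG group 11, the group of 10 nuclei with Schwann markers. Its summed Schwann marker level of 972 CPM was under the limit used above but over the 199.7 to 590 CPM of the other WT groups of this set. XKR4 stood at 223 CPM in WT group 5 and 2621 CPM in TG group 11, and SOX10 at 1.53 and 134 CPM. WT group 7, led by ADAMTS16 and BMP7, shared 11 with TG group 2. The shares of the groups in the 2 libraries are not compared, since genes that differ between the libraries helped to form the groups. The same holds for the members of a pair, which are matched kinds of nuclei and not replicates.

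Among the 30 fibroblast-led genes furthest apart, the largest difference lay in IGFBP5 (chromosome 15, 118861816 to 118877787), which encodes a secreted binding protein of insulin-like growth factors held in the matrix. It was at 1514 (WT) and 34.2 CPM (TG), 44.3 times as high in WT (39.0 to 50.5). After each nucleus was thinned to 1000 UMIs, 58.7% of WT and 2.59% of TG fibroblast nuclei held an IGFBP5 UMI, and 82.5% and 6.02% did before thinning. In thinned cardiomyocyte nuclei, which serve as a background, the shares were 1.34% and 0.409%. IGFBP5 was lower in TG in each of the 4 matched pairs of groups, at 1877 and 23.0 CPM, 1538 and 35.5, 1315 and 27.6, and 2538 and 13.7. It was also lower in vascular endothelial nuclei, at 94.2 and 33.9 CPM, and in macrophage nuclei, at 21.2 and 3.76 CPM.

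The gene of the ligand was lower as well. IGF1 (chromosome 5, 81762027 to 81909253) was at 573 (WT) and 71.5 CPM (TG), 8.02 times as high in WT (7.33 to 8.80), and a UMI was found in 35.7% and 5.93% of thinned nuclei, against 0.574% and 0.306% of cardiomyocyte nuclei. Before thinning the fibroblast shares were 62.8% and 13.4%. In the 4 matched pairs IGF1 stood at 891 and 177 CPM, 701 and 45.3, 392 and 57.6, and 381 and 61.7, lower in TG in each. Macrophages hold IGF1 too, at 527 (WT) and 176 CPM (TG).

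The receptor and its adaptors went the same way. IGF1R, the receptor of IGF-1, was at 1315 and 507 CPM, the insulin receptor gene INSR at 221 and 114 CPM, and the adaptor genes IRS1 and IRS2 at 134 and 43.7 and at 104 and 33.3 CPM. These are also genes of cardiomyocytes, where IRS1 was at 141 and 69.5 CPM and IRS2 at 139 and 60.4 CPM. Of the 12 measured members of the IGF list, 6 were lower and 2 higher in TG, with a median log2 ratio of -0.73. This median turned to 0.10 over 15 genes, 4 higher and 6 lower, without the floor of 10 CPM. The higher ones were IGFBP7, a binding protein of blood vessels and matrix, at 197 and 329 CPM, and STC2, an inhibitor of the protease that frees IGF-1, at 3.59 and 31.9 CPM. In cardiomyocyte, vascular endothelial and macrophage nuclei the median of this list was -0.32, -0.35 and 0.04.

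Matrix genes did not move as one. Of 8 measured fibrillar collagen genes, 4 were lower in TG and none (0) higher, with a median of -0.47. All 8 were fibroblast-led. Over all fibroblast-led genes 29.9% were lower and 14.6% higher, with a median of -0.28, and over all measured genes 8.58% were lower. COL3A1 (chromosome 15, 93556914 to 93595678), the type III collagen of the heart interstitium, was at 2113 (WT) and 1200 CPM (TG), 1.76 times as high in WT (1.72 to 1.80). COL1A2 was at 1283 and 808 CPM and COL5A1 at 379 and 212 CPM. COL1A1, a rule gene and therefore given only as a description, was at 609 and 332 CPM. It is among the 4 counted as lower and enters the median, so both draw in part on the rule. COL5A2, at 1555 and 1416 CPM, COL5A3, COL11A1 and COL27A1 did not reach the ratio of 1.5 in either direction. COL3A1 was lower by at least 1.5 times in 3 of the 4 matched pairs and stood at 2165 and 1446 CPM in the pair of WT group 3 with TG group 2.

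Among the 10 measured beaded and fibril-associated collagens, 4 were lower and 1 was higher. The lower ones include COL6A6, a rule gene, so this count draws in part on the rule. Of the 10, 9 were fibroblast-led and 3 of these were lower, beside 29.9% over all fibroblast-led genes. COL14A1, which coats collagen fibrils, was at 849 (WT) and 355 CPM (TG). COL6A1, a chain of the beaded type VI collagen around cells, was at 1095 and 615 CPM, whereas COL6A3 was at 1297 and 1118 CPM. COL16A1 was the higher one, at 31.7 and 73.6 CPM. Basement membrane genes included LAMC1, a laminin chain, with nearly equal levels of 3267 and 3337 CPM, and NID1, the linker of laminin and collagen IV, at 1532 and 817 CPM. Of 11 measured, 3 were higher and 2 lower (median -0.26). Enzymes that modify and cross-link collagen gave 2 higher and 0 lower of 17, with a median of 0.05. They were LOXL1, a cross-linking oxidase, at 53.2 and 82.6 CPM, and TLL1, a protease of procollagen, at 10.3 and 38.9 CPM. TLL1 leads the groups with lymphatic endothelial markers in both libraries, and without the groups with another class it was at 0.637 and 2.87 CPM.

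**Figure D2:**
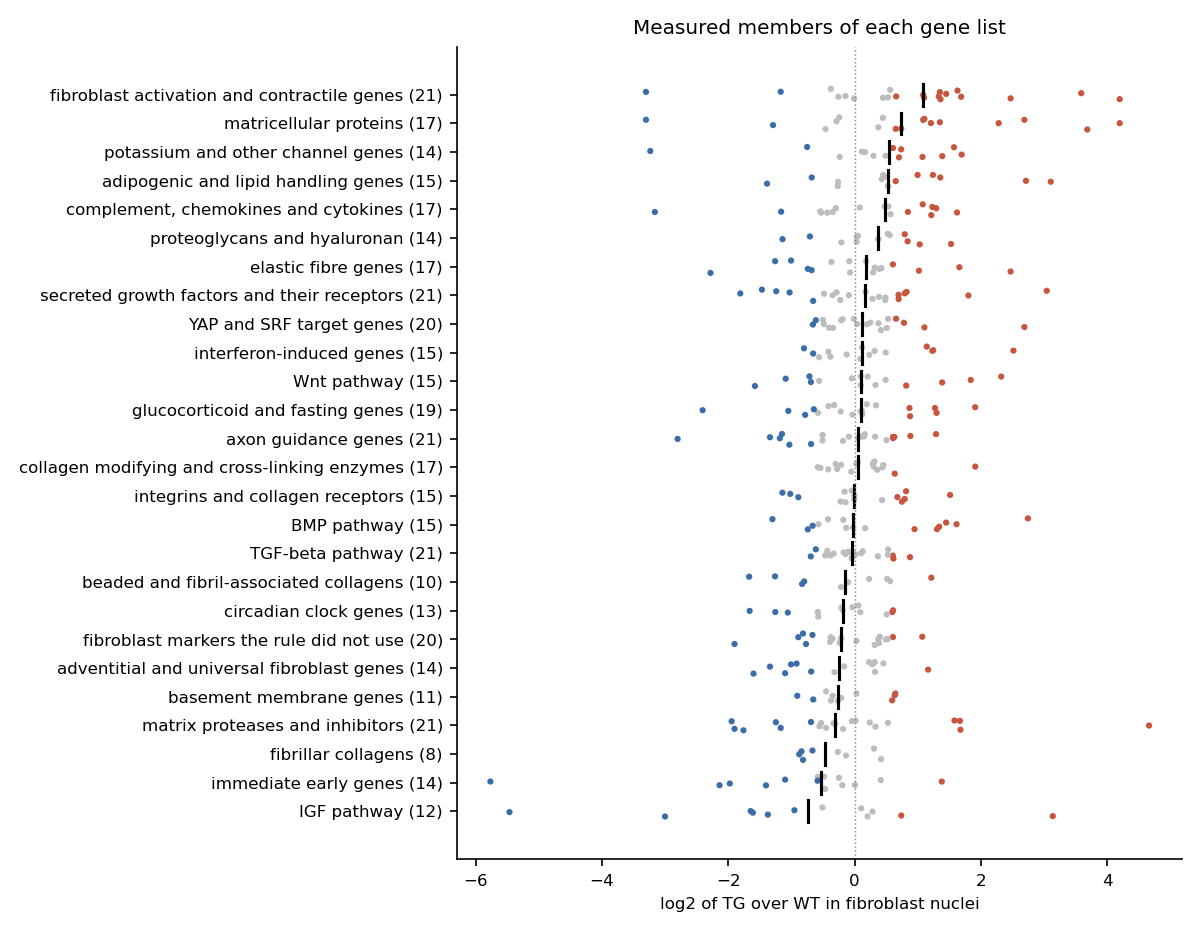
Log2 ratio of TG over WT in fibroblast nuclei (horizontal axis) for the measured members of each gene list (rows, number of measured members in brackets). Red points were higher and blue points lower by at least 1.5 times with intervals that exclude 1, gray points were neither, and black bars are medians, which run from -0.73 for the IGF pathway (0.10 without the floor of 10 CPM) to 1.09 for activation and contractile genes.

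Elastic fibre genes split in opposite directions, 4 higher and 5 lower of 17 (median 0.18). FBN1 (chromosome 1, 123102011 to 123359649), the fibrillin of adult microfibrils, was at 2681 (WT) and 1335 CPM (TG), and FBN2, its developmental relative, at 68.2 and 14.0 CPM. LTBP1, which tethers latent TGF-beta to microfibrils, was at 1702 and 711 CPM. LTBP2 (chromosome 7, 97744974 to 97852848), a related microfibril protein, went the other way at 17.9 and 99.7 CPM, 5.55 times as high in TG (4.79 to 6.47). The microfibril gene MFAP4 was at 84.1 and 266 CPM and elastin, ELN, at 42.6 and 86.4 CPM. FBN1 was lower by at least 1.5 times in 3 of the 4 matched pairs, and LTBP2 was higher in 3.

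Matricellular proteins, which signal from the matrix and bear no load, had 10 of 17 measured genes higher and 2 lower in TG (median 0.74). The list was also higher in macrophage nuclei, with 8 of 9 measured genes higher (median 1.58), and in cardiomyocyte nuclei, with 4 of 7 (median 0.94), while its median in vascular endothelium was -0.27. CCN2, a connective tissue growth factor, was at 26.7 (WT) and 172 CPM (TG), 6.46 times as high in TG (5.73 to 7.30). A CCN2 UMI was found in 2.17% and 12.9% of thinned fibroblast nuclei (7.28% and 27.5% before thinning) in 2.13% and 4.89% of cardiomyocyte nuclei, and in 0.328% and 2.04% of macrophage nuclei. The WT share was thus near that of cardiomyocytes and above that of macrophages. In the matched pairs CCN2 was at 15.6 and 131 CPM, 11.9 and 141, 23.6 and 333, and 54.9 and 325, higher in TG in each. In smooth muscle nuclei its level was 1031 (WT) and 472 CPM (TG), above the fibroblast level in both. SMOC1, a calcium-binding matrix protein, was at 59.4 and 289 CPM, 4.87 times as high in TG (4.48 to 5.29), and higher in all 4 pairs. Fibronectin, FN1, was at 238 and 607 CPM.

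CILP and TNC, matrix genes known for their presence in injured heart and tendon, were near the floor in WT. CILP was at 2.37 CPM in WT (31 UMIs) and 44.1 CPM in TG (310 UMIs), and TNC, tenascin C, at 2.37 (31 UMIs) and 30.9 CPM (217 UMIs). MEOX1, a transcription factor linked to fibroblast activation, was at 1.37 CPM (18 UMIs) and 16.9 CPM (119 UMIs). These 3 genes lead TG group 2, where they stood at 194, 135 and 72.7 CPM, and in WT group 3, its matched pair, they were at 2.51, 1.43 and 0.00 CPM. WT group 7, which shared 11 leading genes with TG group 2 against 13 for WT group 3, is outside the pair. The levels of these 3 genes in WT group 7 are not given here. In the other 3 TG groups of matched pairs, CILP lay between 10.9 and 18.4 CPM, TNC between 0.00 and 16.5 CPM and MEOX1 between 1.51 and 24.0 CPM.

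POSTN, periostin, the usual mark of activated fibroblasts, went against this list at 164 (WT) and 16.5 CPM (TG) (9.92 times higher in WT, 8.22 to 12.1). After thinning, a POSTN UMI was found in 12.4% of WT and 1.23% of TG fibroblast nuclei (30.4% and 2.73% before thinning), in 7.63% and 5.52% of cardiomyocyte nuclei, and in 1.39% and 1.26% of macrophage nuclei. The TG share of fibroblast nuclei was below that of cardiomyocytes and close to that of macrophages. SPARC, another collagen-binding matricellular gene, was also lower, at 698 and 285 CPM.

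Of 21 measured genes for activation and contraction, 12 were higher and 2 lower in TG (POSTN and FAP), the highest list median at 1.09. Without the groups with another class it gave 13 higher and 2 lower, with a median of 1.27, and without the floor of 10 CPM the median was 0.61 over 26 genes. In macrophage nuclei 9 of 13 measured genes of the list were higher (median 1.61), and the median was 0.28 in cardiomyocyte and 0.25 in vascular endothelial nuclei. Restricted to the 9 fibroblast-led members, 4 were higher and 1 lower, with a median of 0.56. The fibroblast-led ones that were higher were FN1, LTBP2, THBS4, a thrombospondin, at 116 and 246 CPM, and TAGLN, transgelin of the actin cytoskeleton, at 76.3 and 192 CPM. In smooth muscle nuclei, which are not part of that lead, TAGLN was at 542 (WT) and 525 CPM (TG). Another 3 members are muscle genes with high levels in cardiomyocytes. TPM1, a tropomyosin, was at 268 and 830 CPM in fibroblast nuclei, and at 230 and 748 CPM in macrophage nuclei. TPM2 was at 58.3 and 150 CPM in fibroblasts and at 49.7 and 151 CPM in macrophages. CDH2, N-cadherin, was at 54.1 and 174 CPM in fibroblasts and at 42.4 and 151 CPM in vascular endothelium. These levels moved with the cardiomyocyte marker sum, in which TPM1 is itself counted. The part of cardiomyocyte transcripts in these levels was not tested.

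Of 14 measured proteoglycan and hyaluronan genes, 4 were higher and 2 lower (median 0.38). GPC3, a glypican of the cell surface, was at 164 (WT) and 474 CPM (TG), 2.88 times as high in TG (2.73 to 3.05), and was found in 12.8% and 32.8% of thinned nuclei (29.96% and 58.9% before thinning). DCN, decorin, a rule gene given as a description, was at 3240 and 4764 CPM. SDC2, syndecan 2, and OGN, osteoglycin, were the lower ones, at 609 and 276 CPM and at 215 and 132 CPM. Lumican, versican (VCAN, 930 and 952 CPM) and the fibril gene FMOD did not reach 1.5 times.

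Of 21 measured matrix proteases and protease inhibitors, 4 were higher and 6 lower (median -0.31). ADAMTS5 (chromosome 13, 190353019 to 190413110), which cleaves versican and other proteoglycans, was at 736 (WT) and 197 CPM (TG), 3.74 times as high in WT (3.53 to 3.96). It was found in 38.5% and 14.7% of thinned nuclei (67.0% and 30.8% before thinning), against 0.324% and 0.306% of cardiomyocyte nuclei, and was lower in all 4 matched pairs. ADAM19 was at 525 and 155 CPM and the fibroblast activation protein FAP at 308 and 137 CPM. Higher in TG were the inhibitor genes SERPINE2, protease nexin, at 173 and 553 CPM (3.20 times, 3.04 to 3.37), and TIMP1, an inhibitor of metalloproteases, at 39.9 and 127 CPM. Both were higher in all 4 matched pairs. In macrophage nuclei 12 of 15 measured genes of this list were higher.

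**Figure D3:**
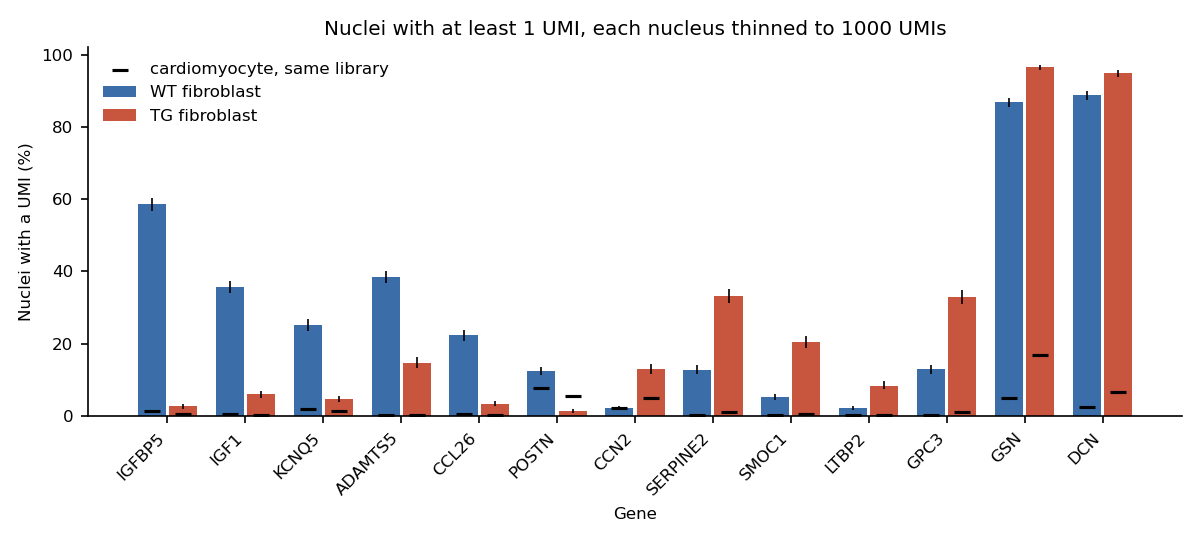
Percent of fibroblast nuclei with at least 1 UMI of a gene after each nucleus was thinned to 1000 UMIs (bars, vertical axis, exact Clopper-Pearson intervals), WT in blue and TG in red. Black dashes give cardiomyocyte nuclei of the same library, and IGFBP5 stands at 58.7% in WT and 2.59% in TG while SERPINE2 stands at 12.7% in WT and 33.2% in TG.

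Integrins and collagen receptors gave 5 higher and 3 lower of 15 measured genes (median -0.01). The collagen receptor gene DDR2 was at 584 (WT) and 315 CPM (TG), ITGA8, an integrin subunit that binds fibronectin, at 199 and 90.2 CPM, and ITGB8, a subunit that activates latent TGF-beta, at 232 and 114 CPM. These 3 are the lower ones and are fibroblast-led. Smooth muscle nuclei are not part of that lead, and there ITGA8 was at 1621 (WT) and 944 CPM (TG), above its fibroblast level. ITGB1, the common beta subunit, was at 263 and 421 CPM. ITGA1, at 53.7 and 94.6 CPM, depended on the groups with another class. Without them it was at 42.6 and 36.5 CPM.

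Genes of the TGF-beta pathway gave 3 higher and 2 lower of 21 measured and a median of -0.04. This lay near the values over all measured genes, 15.7% higher and 8.58% lower with a median of 0.03. The ligand gene TGFB2 was at 256 (WT) and 167 CPM (TG), the receptor gene TGFBR2 at 804 and 617 CPM, and the signal carrier SMAD3 at 263 and 255 CPM. The BMP list gave 6 higher and 3 lower of 15 (median -0.03). Its targets ID1, at 10.1 and 67.8 CPM, and ID3, at 31.3 and 96.0 CPM, and the inhibitory SMAD6, at 23.1 and 63.1 CPM, were higher. They were also high in vascular endothelial nuclei of TG, at 280 CPM for ID1, 349 CPM for ID3 and 529 CPM for SMAD6. CHRDL1, a BMP antagonist led by fibroblasts, was lower at 95.2 and 38.6 CPM.

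The Wnt list was balanced, with 4 higher and 4 lower of 15 (median 0.10). SFRP1, a secreted Wnt inhibitor, was at 62.4 (WT) and 224 CPM (TG), 3.58 times as high in TG (3.29 to 3.90), and higher in all 4 matched pairs. DKK2, another secreted inhibitor, was lower at 109 and 36.5 CPM. TCF7L2, a transcription factor of the pathway, was at 859 and 403 CPM. FRZB, at 10.1 and 50.6 CPM, was higher in TG in cardiomyocyte nuclei too, at 4.89 and 63.8 CPM. Genes of YAP and SRF activity, to which CCN2 and CCN1 (25.1 and 54.1 CPM, and 10.4 CPM in WT without group 5) belong, gave 4 higher and 2 lower of 20 (median 0.12), so the 2 CCN genes were not followed by most of that list.

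Growth factors went both ways, 6 higher and 5 lower of 21 (median 0.17). PDGFD, a ligand of the PDGF receptors, was at 1070 (WT) and 387 CPM (TG) and lower in all 4 pairs, while its level in vascular endothelium was 399 and 1157 CPM. ANGPT4, a ligand of the endothelial TIE2 receptor, was at 7.25 and 60.1 CPM (8.28 times higher in TG, 6.62 to 10.5), and ANGPT1, of the same family, at 145 and 91.7 CPM. The receptor genes PDGFRB (88.7 and 116 CPM) and EGFR (581 and 415 CPM) did not reach 1.5 times.

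Among complement and chemokine genes, 6 of 17 were higher and 2 lower (median 0.48). C7, a late complement component, was at 537 (WT) and 1247 CPM (TG), CFD, factor D, at 852 and 1531 CPM, and CLU, clusterin, an inhibitor of complement lysis, at 91.1 and 281 CPM. C7 and CLU were higher in all 4 matched pairs. CXCL12, a chemokine that retains leukocytes, was at 127 and 312 CPM, and CCL2, which draws monocytes, at 70.9 and 167 CPM. The lower ones were CCL26, an eosinophil chemokine, at 308 and 34.3 CPM (8.98 times higher in WT, 7.88 to 10.3), and IL33, an alarmin of the stroma, at 540 and 241 CPM. CCL26 was found in 22.3% and 3.34% of thinned fibroblast nuclei (43.1% and 7.78% before thinning), against 0.397% and 0.102% of cardiomyocyte nuclei, and was lower in each of the 4 matched pairs.

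**Figure D4:**
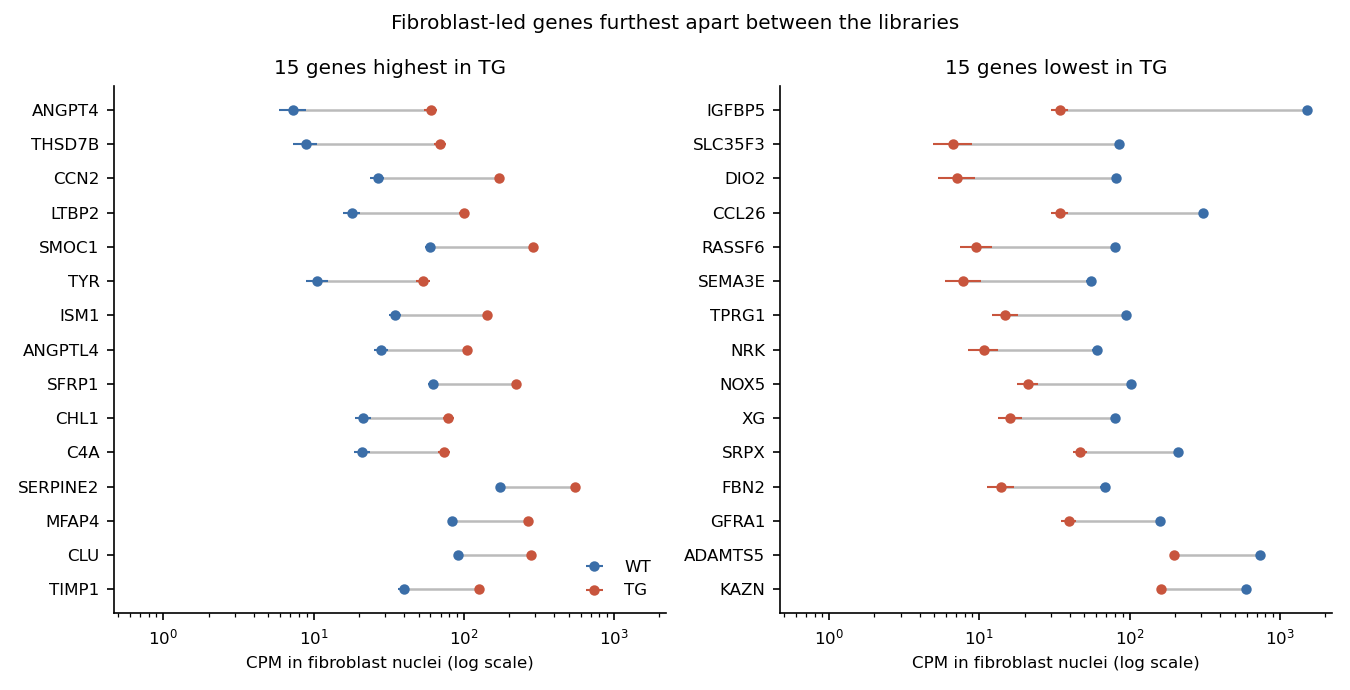
Level in fibroblast nuclei (horizontal axis, CPM, log scale) of the 15 fibroblast-led genes that lay highest in TG (left) and the 15 that lay lowest (right). Blue points are WT, red points TG, and bars are exact Poisson intervals. The genes were chosen by the bound of their ratio interval, so the gaps between these bars follow from the choice. Among them are ANGPT4 at 7.25 and 60.1 CPM and KAZN at 594 and 161 CPM.

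Several further genes at the far ends have roles outside the matrix. DIO2, the deiodinase that activates thyroid hormone, was at 80.8 (WT) and 7.12 CPM (TG), and NOX5, a calcium-driven NADPH oxidase, at 102 and 20.9 CPM. Both lead WT group 3, and both were lower in TG in that pair as well, DIO2 at 253 and 23.4 CPM and NOX5 at 225 and 60.1 CPM. GFRA1, a receptor of the neurotrophic factor GDNF, was at 158 and 39.3 CPM, and the guidance cue SEMA3E at 55.1 and 7.83 CPM. ANGPTL4, an inhibitor of lipoprotein lipase, was at 28.1 and 106 CPM, and TYR, the enzyme of melanin synthesis, at 10.6 and 53.5 CPM. KCNQ5 (chromosome 1, 52435332 to 52939705), a voltage-gated potassium channel, was at 679 and 72.1 CPM, and macrophages held it at 361 and 84.6 CPM. Without the groups with another class it was at 730 and 44.8 CPM. THSD7B, at 8.86 and 69.5 CPM, was then at 2.46 and 69.1 CPM.

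The matched pairs are made of the same nuclei that chose the 30 genes, so they show only how evenly the differences were spread. Of the 30 genes at the ends, 13 were themselves among the leading genes of a paired group (DIO2, NOX5, SEMA3E, KAZN, SLC35F3, TPRG1, THSD7B, ANGPT4, C4A, CLU, ISM1, SMOC1 and SRPX). Of the 15 higher in TG, 12 were higher by the same limits in all 4 pairs and C4A, LTBP2 and THSD7B in 3. Of the 15 lower, 12 were lower in all 4 pairs and FBN2, NOX5 and TPRG1 in 3. Outside fibroblasts, the same genes were often under the floor of 10 CPM in both libraries. Over all measured genes there, the shares counted as higher and lower in TG were 11.5% and 9.42% in cardiomyocyte, 12.4% and 12.0% in vascular endothelial, and 22.5% and 8.52% in macrophage nuclei. SMOC1 and MFAP4 were higher in TG macrophage nuclei, at 0.554 and 10.8 CPM and at 1.11 and 12.2 CPM, levels far below those in fibroblasts.

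**Figure D5:**
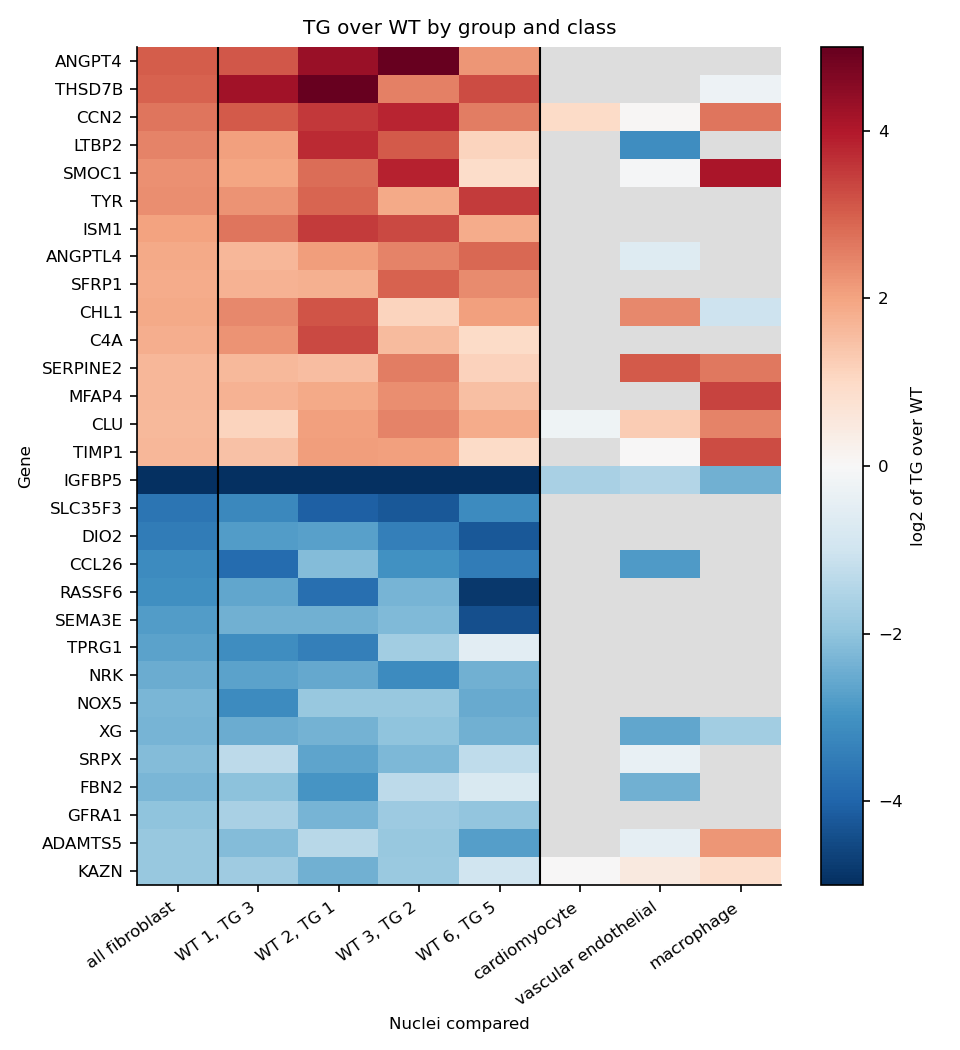
Log2 ratio of TG over WT (colour, red higher and blue lower in TG, ends of the scale hold larger values) for the 30 genes furthest apart (rows). Columns are all fibroblast nuclei, the 4 matched pairs of groups and 3 other classes, gray cells had fewer than 10 CPM in both libraries, and IGFBP5 is the darkest blue in all 5 fibroblast columns.

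Genes of adventitial fibroblasts, the kind found around vessels, gave 1 higher and 6 lower of 14 measured (median -0.24). Of the 14, 8 were fibroblast-led (median 0.03) and 3 of these were lower, beside 29.9% over all fibroblast-led genes. Over all measured genes 8.58% were lower. CLEC3B, tetranectin, was at 294 (WT) and 96.8 CPM (TG), SEMA3C at 573 and 226 CPM, and PI16, a mark of stem-like adventitial fibroblasts, at 155 and 82.0 CPM. Without the groups with another class CLEC3B was at 307 and 47.6 CPM, and the list gave 0 higher and 7 lower of 13 with a median of -0.71. CD34, at 300.0 and 352 CPM, and DPT, dermatopontin, at 490 and 672 CPM, did not reach 1.5 times.

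Lipid handling genes had 6 of 15 higher and 2 lower (median 0.53), and 2 of the 15 were fibroblast-led. FABP5 and FABP4, carriers of fatty acids, were at 22.3 and 193 CPM for FABP5 and 11.7 and 76.9 CPM for FABP4, and CD36, a fatty acid transporter, at 453 and 1162 CPM. Without the groups with another class FABP5 was at 10.3 and 95.5 CPM and FABP4 at 5.64 and 50.1 CPM. In vascular endothelial nuclei FABP5 was at 951 and 1927 CPM, FABP4 at 276 and 694 CPM and CD36 at 1228 and 2563 CPM. The cholesterol exporter gene ABCA1 was lower, at 264 and 101 CPM, as it was in macrophages, at 722 and 253 CPM. Vascular endothelial nuclei made up 10.3% of kept nuclei in WT and 19.3% in TG, and their part in these levels was not tested.

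Some genes known to respond to tissue handling and time of day also differed. Beside the counts below, 15.7% of all measured genes were higher and 8.58% lower, with a median of 0.03. Of 14 measured immediate early genes, 6 were lower and 1 higher (median -0.53). FOS was at 65.2 (WT) and 16.5 CPM (TG), and EGR1 at 110 and 41.6 CPM. For FOSB, WT nuclei held 152 UMIs and TG nuclei 1, a ratio of 81.5 with a counting interval of 14.4 to 3240. WT group 5, with 5.98% of the WT fibroblast nuclei, carried much of this. FOS was at 929 CPM there and EGR1 at 978 CPM, against 19.9 and 64.5 CPM in the other WT members. Without it FOS was at 19.9 and 16.5 CPM and no longer counted as lower, EGR1 was 1.55 times as high in WT, and FOSB had 36 UMIs in WT. The list then gave 2 higher and 3 lower of 13 (median -0.22). Of 13 measured clock genes, 3 were lower and 2 higher (median -0.19), with ARNTL, the partner of CLOCK, at 242 and 76.5 CPM and lower in all 4 matched pairs. In cardiomyocytes the medians of these lists were -0.52 and -0.52. Glucocorticoid and fasting genes gave 5 higher and 4 lower of 19 (median 0.09), with FKBP5 at 404 and 511 CPM. ERRFI1, an inhibitor of EGFR signalling, was at 44.9 and 8.40 CPM, and at 28.9 CPM in WT without group 5.

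Interferon-induced genes gave 4 higher and 2 lower of 15 (median 0.12). Those higher had low levels, MX2 at 3.28 and 18.9 CPM for example. Without the groups with another class the list gave 0 higher and 4 lower of 11. Axon guidance genes gave 5 higher and 6 lower of 21 (median 0.06), among them ROBO2 at 808 and 364 CPM. Channel genes gave 7 higher and 2 lower of 14 (median 0.55), with none (0) fibroblast-led. CACNB2, a calcium channel subunit of heart muscle, was at 80.9 and 262 CPM in fibroblasts (51.9 and 130 CPM without the groups with another class) and at 54.6 and 273 CPM in macrophages.

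Many genes that mark fibroblasts had like levels in both libraries. The 20 fibroblast-led genes of highest level with a ratio under 1.5 included LAMC1, PLXDC2, a receptor-like gene, at 2307 and 2302 CPM, the lipid transporter gene ABCA6 at 1399 and 1427 CPM, COL15A1 at 1219 and 1052 CPM, BNC2, a zinc finger factor, at 946 and 862 CPM, and MFAP5 at 969 and 1208 CPM. PDGFRA, a rule gene, was at 588 and 552 CPM. ABCA8 and COL6A6, also rule genes, measured 1342 and 569 CPM for ABCA8 and 535 and 168 CPM for COL6A6. Of the markers outside the rule, GSN, the actin-severing gelsolin, was the one furthest on the high side at 5069 and 10662 CPM, and it was higher in all 4 matched pairs. THY1, at 78.2 and 45.9 CPM, and DDR2 were on the low side, so the rule and other markers went both ways.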

How the data were processed

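Nuclei of frozen tissue were purified on iodixanol and sequenced after 10x Genomics 3' library preparation, per the labels' protocols. The deposited values are UMI counts per gene and barcode, 1 matrix per library with 31908 genes. Cell Ranger 3.1.0, Seurat 3.1.1 and Sscrofa11.1 are named in the submitters' processing notes, whereas the matrices name Cell Ranger 5.0.0, per the file headers, and which made the counts is open. How intronic reads and strand were counted is not given in the sources used here. Empty droplets were not used here.

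Barcodes with at least 500 genes and at most 5% mitochondrial UMIs were kept, and each limit on another class in the rule was 0.15% of UMIs (1% for RYR2 and CTNNA3). The other classes were defined by the genes of those limits. Counts of members were summed per library, without the 13 mitochondrial genes. Levels carry exact Poisson intervals, shares exact Clopper-Pearson intervals and ratios conditional binomial intervals at 95%. Log2 ratios have 0.5 added to each count. Symbols in the files covered 16498 genes, and the reference table named 851 of the 15410 others. Coordinates are those of its Sscrofa11.1 annotation. The scripts were tested on simulated data.

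The text names the 15 highest and 15 lowest fibroblast-led genes in TG by the interval bound nearest to no difference, the rule genes and the fixed markers, up to 3 genes each way per list, and the 20 alike genes, except some genes that are not reported here. Other genes named, IGF1R, INSR, IRS1, FN1, TPM1, TPM2, CDH2 and CCL2 among them, were chosen after their values were seen. The members and the 26 lists (490 of 514 genes found) were chosen with earlier results of these data known, and no list is independent evidence. Groups used 2000 variable genes, 20 components, 15 neighbours and Leiden resolution 0.5 in each library alone. No doublet caller was run. Thinning to 1000 UMIs left out 50 WT and 0 TG members. Tools were Python 3.11.15, numpy 2.4.6, pandas 2.3.3, scipy 1.17.1, scanpy 1.11.5, leidenalg 0.10.2 and, for TMM factors, edgeR 4.0.16.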

Additional observations from a re-analysis of the deposited data

Results flagged for a closer look

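Of the 30 genes furthest apart in fibroblast nuclei, 5 went the opposite way by at least 1.5 times in another class. These differences between classes were not tested. ADAMTS5 had a log2 ratio of TG over WT of -1.90 in fibroblasts (736 and 197 CPM) and of 2.20 in macrophages, where its levels were 4.06 and 18.8 CPM. KAZN had -1.89 in fibroblasts (594 and 161 CPM) and 0.89 in macrophages (8.68 and 16.0 CPM). CHL1, a neural adhesion molecule, had 1.88 in fibroblasts (21.3 and 78.8 CPM) and -1.02 in macrophages (25.1 and 12.2 CPM). LTBP2 had 2.47 in fibroblasts (17.9 and 99.7 CPM) and -3.12 in vascular endothelium (46.8 and 5.34 CPM). ANGPTL4 had 1.91 in fibroblasts (28.1 and 106 CPM) and -0.66 in vascular endothelium (69.7 and 44.0 CPM).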

How the results depend on the processing

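All 30 genes furthest apart kept their call under the 13 alternatives run on named genes, and 105 of the 138 named genes counted as higher or lower did. The 30 were chosen for their distance from no difference, so their kept calls say little about genes nearer to it. The 13 alternatives changed the filters, the rule's thresholds and limits, depth, weighting, scaling and a subtracted library-wide profile. Those without the groups with another class and without WT group 5 were added after seeing the data. The library in which the fibroblast lead is asked was also varied after seeing the data, for the counts of fibroblast-led genes and outside these 13. The share ratio was 0.791 without the groups with another class, 0.905 without WT group 5, which takes nuclei from WT only, and 0.669 with at most 1% mitochondrial UMIs. Genes lower in TG numbered 1404 with TMM factors, 1385 with median of ratios factors and 1355 without the floor of 10 CPM, against 878. Genes higher numbered 3441 without the floor and 812 with a floor of 30 CPM, against 1606. The median of the IGF list was 0.10 without the floor, and ITGA1 was at -0.22 (log2) without the groups with another class. The subtracted profile was set by the marker that allows least, 1.77% of UMIs in WT and 4.81% in TG. Set by the median marker it would be 35.3% and 83.6% and would turn 40 of the 138. At resolution 0.3 there were 8 groups in WT and 10 in TG, and at resolution 1 there were 15 and 16. TG had fewer UMIs, so its levels have wider intervals. No paired analysis was possible because each genotype has 1 library.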

Other observations

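Nuclei that passed the fibroblast markers but exceeded a limit on another class were more frequent in TG. Of the nuclei that passed the marker part, 173 in TG and 73 in WT exceeded the endothelial limit, 156 and 148 the cardiomyocyte limit, and 68 and 38 the macrophage limit. Among the members, 40.3% in WT and 18.9% in TG held no UMI of RYR2 or CTNNA3.

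Some genes stood out in a single group with another class. THSD7B was at 172 CPM in WT group 8, which carries immune markers, and KCNQ5 at 964 CPM in TG group 9, which carries T or NK markers.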
